A study of Bos taurus with 9 samples.

Results

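The nuclear encoded subunits of the respiratory chain and ATP synthase were taken from the gene counts of cow liver by their symbols, which begin with NDUFA, NDUFB, NDUFC, NDUFS or NDUFV and a digit, with UQCR, with COX4I, COX5, COX6, COX7 or COX8, or with ATP5, or are SDHA, SDHB, SDHC or SDHD. This gave 85 of the 28786 genes listed. By symbol, 38 belonged to complex I, 4 to complex II, 8 to complex III, 16 to complex IV and 19 to complex V. The match was made on names alone, so some members do other work or sit in another complex than their symbol says. NDUFA4 was counted under complex I, although it is known as a subunit of complex IV. RefSeq (ARS-UCD2.0) lists ATP5S as DMAC2L, and ATP5IF1 is an inhibitor of ATP synthase and not a structural subunit.

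Liver biopsies of 9 lactating Holstein cows were sequenced after poly-A selection, with 3 cows and 3 libraries in each of 3 groups. TN cows were kept at thermoneutrality, HS cows were exposed to heat stress, and PF cows were kept at thermoneutrality but pair-fed, that is, given feed to match the intake of the HS cows. HS against TN holds heat together with lower intake, HS against PF holds heat at matched intake, and PF against TN holds lower intake without heat. The average days in milk given in the paper also differ between the 3 groups. Every library came from a different cow and a single biopsy, so each group was 3 animals, and a bulk biopsy cannot tell fewer cells of a type from less RNA per cell.

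The respiratory chain sits in the inner membrane of mitochondria. Complex I (NADH dehydrogenase) and complex II (succinate dehydrogenase) pass electrons to ubiquinone, complex III passes them to cytochrome c, complex IV (cytochrome c oxidase) passes them to oxygen, and complex V (ATP synthase) uses the resulting proton gradient to make ATP. Complexes I, III, IV and V are built from subunits of both genomes, a few translated inside the organelle from mitochondrial DNA and the rest imported from the cytosol, whereas complex II is encoded in the nucleus alone. Liver relies on this machinery for gluconeogenesis, ureagenesis and fatty acid oxidation.

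The libraries held 16874444 to 22557047 counts. Levels are given as CPM, counts scaled to library size with TMM normalization over the 9 libraries, and they were compared between cows and not between genes, because gene lengths were not used here. At this depth 3 counts, taken as the limit that a count of 0 allows, correspond to 0.111 to 0.202 CPM (counting error only). Of the 85 genes, 79 passed the filter on low counts in each pair of groups. The defining markers of hepatocytes were present in every library, but TN replicate 1 stood apart, with a summed level of 10 hepatocyte markers of 18844 CPM against 61720 to 132842 CPM in the other 8 cows. The medians and counts against TN, and the genes whose difference changed most, are therefore also given without this library.

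None of the 79 tested subunit genes passed the criteria for a DEG in any pair of groups, and the summed levels of the 3 groups overlapped. The summed level of the 85 genes was 6988 ± 2578 CPM in TN, 8658 ± 1044 CPM in PF and 8331 ± 1938 CPM in HS cows (mean ± SD, n = 3). In the single cows it was 4030, 8756 and 8179 CPM in TN, 8127, 9860 and 7986 CPM in PF, and 6378, 8363 and 10253 CPM in HS. The lowest value belonged to TN replicate 1, and the highest belonged to HS replicate 3. The log2 ratio of the summed level was 0.25 for HS against TN, -0.06 for HS against PF and 0.31 for PF against TN. It was -0.02 for HS against TN and 0.03 for PF against TN without TN replicate 1.

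**Figure D1:**
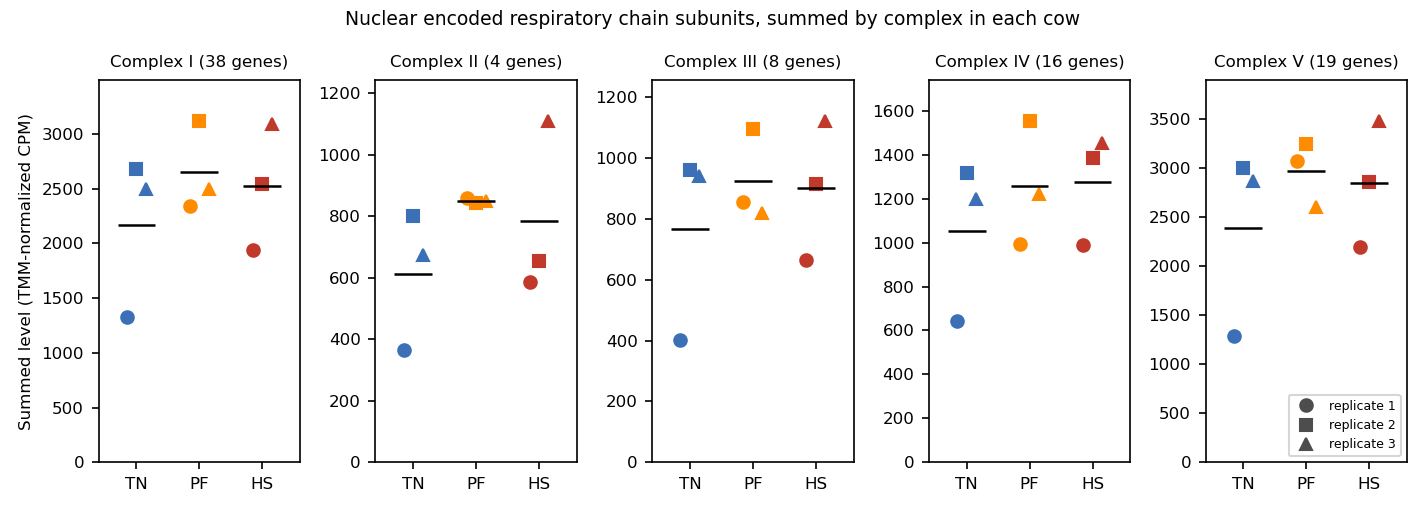
Summed TMM-normalized level (CPM) of the nuclear encoded subunit genes of each complex in each cow; points are cows, coloured by group and shaped by replicate, and the horizontal lines are group means. TN replicate 1 lies lowest in each of the 5 complexes, from 364 CPM in complex II to 1331 CPM in complex I. In complex II the 3 PF cows (844 to 858 CPM) lie above the 3 TN cows (364 to 799 CPM), and all other pairs of groups overlap.

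TN replicate 1 was the lowest of the 9 cows for 69 of the 79 tested genes, or 87.3%, against 26.1% of the 15073 genes tested over all libraries and 34.7% of the 8466 genes with a mean of at least 10 CPM. By complex it was lowest for 34 of 37 genes of complex I, 4 of 4 of complex II, 7 of 8 of complex III, 7 of 11 of complex IV and 17 of 19 of complex V. HS replicate 1 was lowest for a further 7 genes. The low level of TN replicate 1 thus ran through all 5 complexes.

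The mean log2(CPM + 0.5) of the 79 genes was 5.34 in TN replicate 1 and 5.93 in HS replicate 1, and it lay between 6.20 and 6.62 in the other 7 cows. These 2 cows were also the lowest in the mean log2 level of the 10 hepatocyte markers, at 10.26 and 11.38, with the other 7 between 11.54 and 12.06. HS replicate 3 was highest in both. TN replicate 1 and HS replicate 1 also had the largest TMM factors, 1.326 and 1.202, with no other cow above 1.006. HS replicate 3 had the smallest, 0.869. A larger factor lowers every CPM of a cow, and the part of this scaling in the place of these 3 cows was not tested. In TN replicate 1, ALB, which encodes serum albumin, was at 8768 CPM, and it was at 33905 to 82515 CPM in the other cows. TF, TTR, SERPINA1, CPS1, FGB and CYP2E1 were also lowest in that cow, but APOA1, APOB and ASGR1 were not. They were at 842, 974 and 431 CPM there, against 276 to 2007, 589 to 1267 and 420 to 833 CPM in the others. Summed markers of macrophages were at 1235 CPM in TN replicate 1 and at 1220 to 2895 CPM elsewhere, and those of endothelium at 1011 CPM against 722 to 1096 CPM. Those of stellate cells and fibroblasts were at 323 CPM against 207 to 504 CPM, and those of cholangiocytes at 87.1 CPM against 20.9 to 136 CPM. HS replicate 1 was the highest cow for endothelium (1096 CPM) and for stellate cells and fibroblasts (504 CPM). It was at 2258 CPM for macrophages and 110 CPM for cholangiocytes. Of 12 skeletal muscle markers, the defining ACTA1, MYH1 and MYH7 had no count in any cow. DES was at 13.8 to 32.9 CPM and TTN at 0.0559 to 2.37 CPM, and the rest had at most 10 counts in a cow. The 3 measured neutrophil markers summed to 22.6 to 38.6 CPM in HS to 6.58 to 16.9 CPM in TN and to 7.46 to 26.9 CPM in PF cows, with PF replicate 2 within the HS range. Of 6 pancreatic acinar markers, CPA1, CPB1, CTRB1 and PNLIP had no count in any cow, and PRSS2 was at 17.6 to 33.9 CPM in HS cows, at 24.2 CPM in PF replicate 1 and at no more than 0.494 CPM in the others. The part of these cell types in the levels of the subunit genes was not tested.

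**Figure D2:**
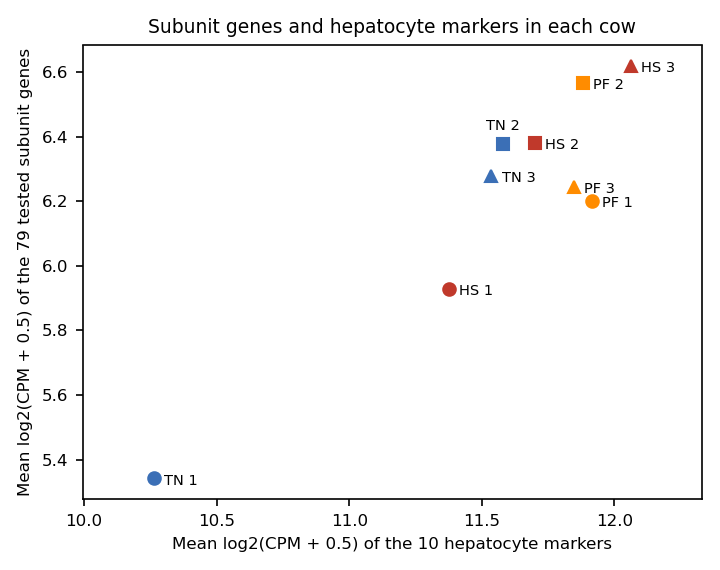
Mean log2(CPM + 0.5) of 10 hepatocyte marker genes (x axis) against that of the 79 tested subunit genes (y axis), with 1 point for each of the 9 cows, coloured by group and shaped by replicate. TN replicate 1 is lowest on both axes (10.26 and 5.34) and HS replicate 3 highest on both (12.06 and 6.62); the points share their libraries and normalization.

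Heat stress was first compared with thermoneutrality at free intake. The quasi-likelihood F test of edgeR, with Benjamini-Hochberg adjustment over 14582 genes (FDR), called 13 genes (0.0892%), where a call needed a change of more than 1.5-fold and an FDR below 0.1. Of the 79 subunit genes it called 0. Their FDR ranged from 0.504 to 0.999. In 65 of the 79 the log2 fold change was above 0 (49.3% of all genes tested) and in 14 below, and the median log2 fold change was 0.25, against -0.01 for all genes tested. The smallest value was -0.50 in ATP5S and the largest 1.05 in SDHC. By complex the median log2 fold change was 0.19 in I, 0.49 in II, 0.26 in III, 0.41 in IV and 0.25 in V.

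This upward displacement was not seen without TN replicate 1. In the fit without that cow, 41 genes were higher and 38 lower in HS, and the median log2 fold change was 0.01. The medians of the complexes were then -0.03, 0.20, -0.02, 0.09 and 0.00 in the order I to V. Leaving out HS replicate 1 moved the median the other way, to 0.42, and leaving out HS replicate 3 gave 0.10. Without TN replicate 2 it was 0.44. Without TN replicate 1 and HS replicate 1 together, the libraries with the lowest TMM-normalized levels, it was 0.16, with 58 genes higher and 21 lower.

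At an unadjusted p under 0.05, 2 subunit genes were higher in HS and 0 lower, while 4.13% of all genes tested were higher and 5.23% lower. These counts were 0 and 1 without TN replicate 1, beside 3.19% and 3.28% of all genes tested. They were 6 and 0 without TN replicate 2 (6.04% and 6.98% of all) and 0 and 0 without TN replicate 3 (3.28% and 4.05%). Without TN replicate 1 and HS replicate 1 together they were 5 and 0 (3.83% and 3.91%). The groups did not overlap in 2 subunit genes, both higher in HS (8.37% of all genes tested), and in 0 lower in HS (7.7% of all). With all 6 cows, the shares of the 79 genes were below those of all genes. Their median SE was 0.34 on the log2 scale, so that small differences were not detectable with 3 cows a group. The 95% interval of the log2 fold change lay above -1.04 in 76 of the 79 genes. That value was the smallest difference among the 13 protein genes of the mitochondrial genome in the same comparison. The interval also lay above it in 9878 of the 14582 genes tested. In HS against PF the smallest such difference was -0.15, and the interval lay above it in 1 of the 79 genes (885 of 14510 genes tested). In PF against TN it was -0.43, with 41 of the 79 genes above it (3494 of 14580). The counts of intervals against TN include TN replicate 1.

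**Figure D3:**
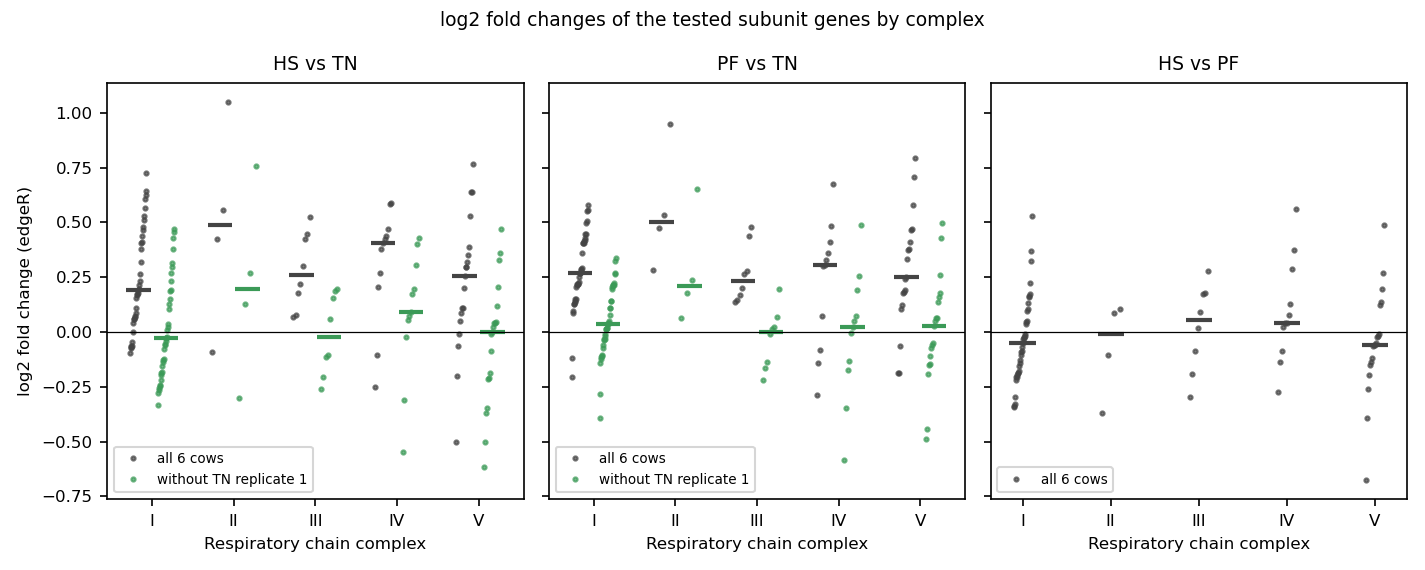
Log2 fold change of each tested subunit gene, by complex, in the 3 pairs of groups, with points for genes and bars for the median of each complex; grey is the fit of all 6 cows and green the fit without TN replicate 1. In HS against TN and PF against TN the medians of all 5 complexes are above 0 and move toward 0 without that cow, and in HS against PF they lie between -0.06 and 0.05.

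With intake matched, the median lay near 0. In HS against PF, edgeR called 4 of 14510 genes (0.0276%) and 0 of the 79 subunit genes. Of these, 33 were higher (50.9% of all genes tested) and 46 lower in HS, with a median log2 fold change of -0.03 (all genes tested, 0.01) and a range from -0.68 in ATP5S to 0.56 in COX7A1. The medians by complex were -0.05, -0.01, 0.05, 0.04 and -0.06 in the order I to V. At an unadjusted p under 0.05, 0 genes were higher (3.07% of all genes tested) and 1, ATP5S, was lower (2.25% of all). It was also the 1 subunit gene whose groups did not overlap (4.58% of all genes were lower in HS without overlap, and 5.95% higher). The median log2 fold change was 0.12 without HS replicate 1 and -0.22 without HS replicate 3. It was 0.06 without PF replicate 2, so its sign changed with single cows of either group.

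Pair-feeding without heat was compared with thermoneutrality at free intake, a comparison that shares its TN cows with HS against TN. Here edgeR called 0 of 14580 genes (0% of all; 1003 genes had an unadjusted p under 0.05, and DESeq2 called 91), so 0 of the 79 subunit genes were called as well. In PF 71 were higher (48.8% of all genes tested) and 8 lower, with a median log2 fold change of 0.28 (all genes tested, -0.01) and a range from -0.29 in COX7C to 0.95 in SDHC. At an unadjusted p under 0.05, 3 were higher (2.99% of all genes tested), SDHC, COX7A2L and ATP5MC2, and 0 lower (3.89% of all). In 8 the PF cows lay above all TN cows (6.81% of all genes), and in 0 below them (6.36% of all). Without TN replicate 1 the median was 0.03, with 47 genes higher, 32 lower and 0 with an unadjusted p under 0.05 and higher (1.92% of all genes tested).

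Ribosomal protein genes, a further set of abundant transcripts, were measured in the same libraries. The median log2 fold change in HS against TN, HS against PF and PF against TN was 0.25, -0.07 and 0.34 for 82 cytosolic ribosomal protein genes and 0.30, 0.01 and 0.32 for 78 mitochondrial ribosomal protein genes. These values stand beside 0.25, -0.03 and 0.28 for the subunit genes. Without TN replicate 1 the medians of HS against TN and PF against TN were 0.08 and 0.12 for the cytosolic and 0.08 and 0.14 for the mitochondrial ribosomal protein genes. Differences between the families were not tested.

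Complex I, the entry point for electrons from NADH, had 37 tested genes. Its summed level was 1331, 2681 and 2495 CPM in TN, 2339, 3117 and 2492 CPM in PF and 1938, 2544 and 3086 CPM in HS cows. The groups overlapped. The catalytic core includes NDUFV1, which binds NADH and FMN, and the subunits NDUFV2, NDUFS1, NDUFS7 and NDUFS8, which hold iron-sulphur clusters, with NDUFS3. In these 6 genes the log2 fold change of HS against TN lay between -0.10 (NDUFV2) and 0.48 (NDUFS1), that of HS against PF between -0.29 (NDUFS3) and -0.07 (NDUFS1), and that of PF against TN between 0.09 (NDUFS8) and 0.55 (NDUFS1). Leaving out TN replicate 1 put HS against TN between -0.33 (NDUFV2) and 0.27 (NDUFS1) and PF against TN between -0.11 (NDUFS8) and 0.34 (NDUFS1). All 6 were lower in HS than in PF by their means, and none of the 6 passed the test.

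NDUFV1 was at 85.6, 153 and 156 CPM in TN, 125, 190 and 161 CPM in PF and 109, 129 and 185 CPM in HS cows, which gave a difference on the log2 scale of 0.09 (SE 0.32, 95% interval -0.64 to 0.81, edgeR FDR = 0.940) in HS against TN, and -0.14 when TN replicate 1 was left out. The groups overlapped, with TN replicate 1 the lowest of the 9 cows.

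The accessory subunits of complex I surround the core and are needed for its assembly and stability. In HS against TN the genes of complex I with the smallest p were NDUFB4 (log2 fold change 0.65, SE 0.29), NDUFB2 (0.53, SE 0.26), NDUFB3 (0.61, SE 0.31) and NDUFA2 (0.72, SE 0.37), with an edgeR FDR of 0.522 to 0.553. Their log2 fold changes were 0.43, 0.46, 0.38 and 0.47 without TN replicate 1. For NDUFB2, TN replicate 1 was close to the other TN cows, at 21.5 CPM beside 25.5 and 26.4 CPM. The PF cows were at 37.6, 31.6 and 28.1 CPM and the HS cows at 23.7, 36.8 and 46.7 CPM, and HS replicate 1 was within the TN range. NDUFB7 (named after its values were seen) was 1 of the 2 genes without overlap between HS and TN, at 38.3, 85.8 and 81.0 CPM in TN and 86.8, 91.8 and 106 CPM in HS cows. HS replicate 1 and TN replicate 2 lay close together, and the log2 fold change was 0.46 (SE 0.31, edgeR FDR = 0.628), and 0.18 without TN replicate 1. In HS against PF the smallest p in complex I belonged to NDUFA7 (log2 fold change 0.53, SE 0.27, edgeR FDR = 0.960).

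NDUFA4 was at 103, 314 and 254 CPM in TN, 288, 278 and 217 CPM in PF and 164, 255 and 285 CPM in HS cows. The groups overlapped, and HS against TN gave 0.06 (SE 0.42) on the log2 scale, and -0.28 without TN replicate 1. Its paralog NDUFA4L2, known as a gene induced in hypoxia, did not pass the filter. It had 58 counts in TN replicate 1, 13 in PF replicate 2 and 9 in HS replicate 1, and 0 to 3 counts in the other 6 cows.

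Complex II links the citric acid cycle to the chain and is the only complex without mitochondrially encoded subunits. Its 4 genes had the largest median in HS against TN (0.49) and in PF against TN (0.50) among the 5 complexes, medians that were 0.20 and 0.21 without TN replicate 1. Of the 4 genes, SDHC had the largest and SDHA the smallest log2 fold change in HS against TN and in PF against TN. The summed level was 364, 799 and 675 CPM in TN, 858, 844 and 850 CPM in PF and 587, 655 and 1109 CPM in HS cows. The PF cows lay above all TN cows and close together. SDHA, the flavoprotein that oxidizes succinate, was at 177, 336 and 283 CPM in TN, 320, 335 and 313 CPM in PF and 180, 190 and 384 CPM in HS cows. The PF cows were close together, and the HS cows split, with 2 near the level of TN replicate 1 and HS replicate 3 the highest of the 9. The log2 fold change was -0.09 (SE 0.39, 95% interval -0.96 to 0.79, edgeR FDR = 0.948) in HS against TN, -0.30 there without TN replicate 1, and -0.37 (SE 0.32) in HS against PF.

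SDHC, which encodes a membrane anchor of complex II that helps bind heme and ubiquinone, was at 35.6, 98.8 and 62.7 CPM in TN, 103, 112 and 165 CPM in PF and 83.9, 113 and 213 CPM in HS cows. All PF cows were above all TN cows, and HS replicate 1 was below TN replicate 2. It had the largest log2 fold change of the subunit genes in HS against TN, 1.05 (SE 0.43, edgeR FDR = 0.504), and in PF against TN, 0.95 (SE 0.38, edgeR FDR = 0.708). When TN replicate 1 was left out, these were 0.76 and 0.65. In HS against PF its log2 fold change was 0.11 (SE 0.35, 95% interval -0.67 to 0.88). The iron-sulphur subunit SDHB was at 87.0, 210 and 194 CPM in TN, 226, 256 and 228 CPM in PF and 169, 194 and 300 CPM in HS cows. PF again lay above TN without overlap, with a log2 fold change of 0.53 (SE 0.36, edgeR FDR = 0.729), which was 0.24 without TN replicate 1. SDHD, the second membrane anchor, had log2 fold changes of 0.56 (SE 0.35) in HS against TN, 0.09 (SE 0.27) in HS against PF and 0.47 (SE 0.36) in PF against TN. Those against TN were 0.27 and 0.18 without TN replicate 1.

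Complex III had 8 tested genes, and each had a higher mean in HS and in PF than in TN. When TN replicate 1 was left out, 4 of the 8 were higher and 4 lower in each of these comparisons. Their log2 fold changes in HS against TN lay between 0.07 in UQCRC1, a core protein of the complex, and 0.52 in UQCR11, a small accessory subunit. UQCRC1 was at 107, 248 and 212 CPM in TN, 200, 274 and 209 CPM in PF and 166, 175 and 259 CPM in HS cows. UQCR11 was at 24.5, 78.9 and 76.3 CPM in TN, 73.6, 89.8 and 80.1 CPM in PF and 74.3, 99.0 and 86.5 CPM in HS cows. For this gene TN replicate 1 lay far below the other 8 cows, which spanned 73.6 to 99.0 CPM, and its log2 fold change in HS against TN was 0.16 without that cow. UQCRFS1, the Rieske iron-sulphur protein, had log2 fold changes of 0.18 (SE 0.36), -0.30 (SE 0.30) and 0.48 (SE 0.35) in HS against TN, HS against PF and PF against TN. The values against TN were -0.10 and 0.20 when TN replicate 1 was left out, and that of UQCRC1 in HS against TN was -0.21. Without that cow the median of complex III in HS against TN was -0.02.

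In complex IV, 11 of the 16 genes were tested. COX4I1, the ubiquitous form of the subunit that binds ATP and regulates the enzyme, was at 174, 309 and 305 CPM in TN, 289, 410 and 350 CPM in PF and 300, 329 and 328 CPM in HS cows. The HS cows were close together, and the log2 fold change was 0.27 (SE 0.32, 95% interval -0.44 to 0.97, edgeR FDR = 0.781) in HS against TN and -0.14 (SE 0.26) in HS against PF. COX5A and COX5B had log2 fold changes of 0.38 (SE 0.35) and 0.20 (SE 0.33) in HS against TN and 0.02 (SE 0.28) and -0.27 (SE 0.31) in HS against PF. In HS against TN without TN replicate 1, COX4I1 was at 0.05, COX5A at 0.09 and COX5B at -0.02. COX7A2L, known for its part in joining complexes III and IV into supercomplexes, was at 39.9, 74.7 and 52.8 CPM in TN, 79.1, 105 and 83.2 CPM in PF and 72.3, 82.4 and 98.0 CPM in HS cows. All its PF cows exceeded all TN cows. The log2 fold change of PF against TN was 0.67 (SE 0.30, edgeR FDR = 0.708), and 0.49 without TN replicate 1. COX7C, a small subunit, had lower means in HS and PF than in TN, at 72.4, 171 and 166 CPM in TN, 99.7, 151 and 85.5 CPM in PF and 67.4, 165 and 114 CPM in HS cows. Its log2 fold change was -0.25 (SE 0.41) in HS against TN and -0.29 (SE 0.38) in PF against TN, and -0.55 and -0.58 without TN replicate 1.

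Several subunits of complex IV have a liver form and a form typical of muscle, lung or testis, and most of the latter had few counts here. COX6A1, the liver form, was at 56.9 to 191 CPM over the 9 cows, and its muscle paralog COX6A2 had 0 to 5 counts per library. COX4I2, typical of lung, had 0 to 32 counts, with the highest in TN replicate 1, and COX8B had 1 to 24 counts. COX6B2, a testis form, had 1 count in 1 cow. COX7A1, typical of heart and muscle, passed the filter, at 4.52, 7.29 and 2.92 CPM in TN, 6.22, 4.64 and 3.11 CPM in PF and 4.95, 10.8 and 4.91 CPM in HS cows. Its log2 fold change of 0.56 (SE 0.41) in HS against PF was the largest of the subunit genes in that comparison, and HS replicate 2 lay above all other cows. Paralogs can share reads, and how the authors' counting treated reads that fit several genes is not given in the sources used here.

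COX7B2, known as a testis form of COX7B, was the only subunit gene called by either tool. It had 0, 24 and 58 counts in TN, 2, 0 and 7 in PF and 2, 2 and 0 in HS cows, too few for the edgeR filter in the fits of all 6 cows. It passed the filter in some fits with 1 cow left out, through its counts in TN. HS against TN gave -4.59 (SE 1.95, edgeR FDR = 0.572) without HS replicate 1 and -5.08 (SE 0.89, edgeR FDR = 0.207) without TN replicate 1. The latter fit removes the TN cow with no count, so it is no further test of the difference. DESeq2 gave a log2 fold change of -4.63 (SE 1.40, FDR = 0.0676) in HS against TN and -3.35 (SE 1.37, FDR = 0.473) in PF against TN. DESeq2 called 1.75%, 0.771% and 0.555% of genes in HS against TN, HS against PF and PF against TN. The difference rested on TN replicates 2 and 3, since TN replicate 1 had no count. Its paralog COX7B was at 64.0, 111 and 107 CPM in TN, 66.5, 114 and 75.7 CPM in PF and 59.2, 105 and 100 CPM in HS cows, with overlapping groups and a log2 fold change of -0.11 (SE 0.31) in HS against TN, which was -0.31 without TN replicate 1.

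ATP synthase had 19 genes, and 15 of these had a higher mean in HS than in TN, or 10 of 19 without TN replicate 1. ATP5F1A and ATP5F1B encode the alpha and beta subunits, the latter with the catalytic sites, and ATP5F1C the rotating gamma subunit. ATP5F1B was at 169, 416 and 341 CPM in TN, 511, 415 and 356 CPM in PF and 285, 320 and 469 CPM in HS cows. Its log2 fold change was 0.20 (SE 0.39, 95% interval -0.67 to 1.08, edgeR FDR = 0.873) in HS against TN and -0.26 (SE 0.29) in HS against PF. The values for ATP5F1A were 0.35 (SE 0.40) and -0.12 (SE 0.29), and those for ATP5F1C were 0.39 (SE 0.35) and -0.02 (SE 0.28). The inhibitor ATP5IF1, which limits ATP hydrolysis by the enzyme when the membrane potential is lost, had log2 fold changes of 0.25 (SE 0.33), 0.14 (SE 0.30) and 0.12 (SE 0.32) in HS against TN, HS against PF and PF against TN. When TN replicate 1 was left out, HS against TN gave 0.04 for ATP5F1A, -0.08 for ATP5F1B, 0.12 for ATP5F1C and 0.02 for ATP5IF1, and PF against TN gave -0.11 for ATP5IF1. The groups overlapped in these 4 genes.

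Subunit c forms the rotor ring through which protons pass, and its mature protein is encoded by ATP5MC1, ATP5MC2 and ATP5MC3. ATP5MC2 was at 34.9, 85.1 and 76.4 CPM in TN, 83.5, 127 and 130 CPM in PF and 106, 105 and 125 CPM in HS cows. All HS cows were above all TN cows, and PF replicate 1 was within the TN range. The log2 fold change was 0.77 (SE 0.33, edgeR FDR = 0.518) in HS against TN and 0.79 (SE 0.36, edgeR FDR = 0.708) in PF against TN, and 0.47 and 0.50 without TN replicate 1. ATP5MC3 was at 33.1, 80.1 and 64.1 CPM in TN, 80.8, 115 and 94.0 CPM in PF and 65.6, 91.9 and 121 CPM in HS cows, with log2 fold changes of 0.64 (SE 0.35) and 0.71 (SE 0.34). ATP5MC1 had 0.64 (SE 0.39) and 0.37 (SE 0.35). Leaving out TN replicate 1 gave 0.36 and 0.43 for ATP5MC3 and 0.33 and 0.06 for ATP5MC1. In HS against PF the log2 fold changes of ATP5MC1, ATP5MC2 and ATP5MC3 were 0.27, -0.02 and -0.06.

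ATP5S stood at the lower end in both comparisons with HS. It encodes a factor known under the names DMAC2L and factor B, a coupling factor that is not part of the core enzyme. Its level was 10.6, 14.6 and 13.5 CPM in TN, 16.5, 15.1 and 12.4 CPM in PF and 6.98, 9.24 and 11.4 CPM in HS cows. All HS cows were below all PF cows, and HS replicate 3 overlapped TN replicate 1. The log2 fold change was -0.68 (SE 0.27, 95% interval -1.27 to -0.08, edgeR FDR = 0.847) in HS against PF and -0.50 (SE 0.26, edgeR FDR = 0.561) in HS against TN, and -0.62 in the latter without TN replicate 1. RefSeq places the gene across CDKL1 on ARS-UCD2.0, and whether the counting used strand is not given in the sources used here, so reads of the 2 genes may not be told apart.

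**Figure D4:**
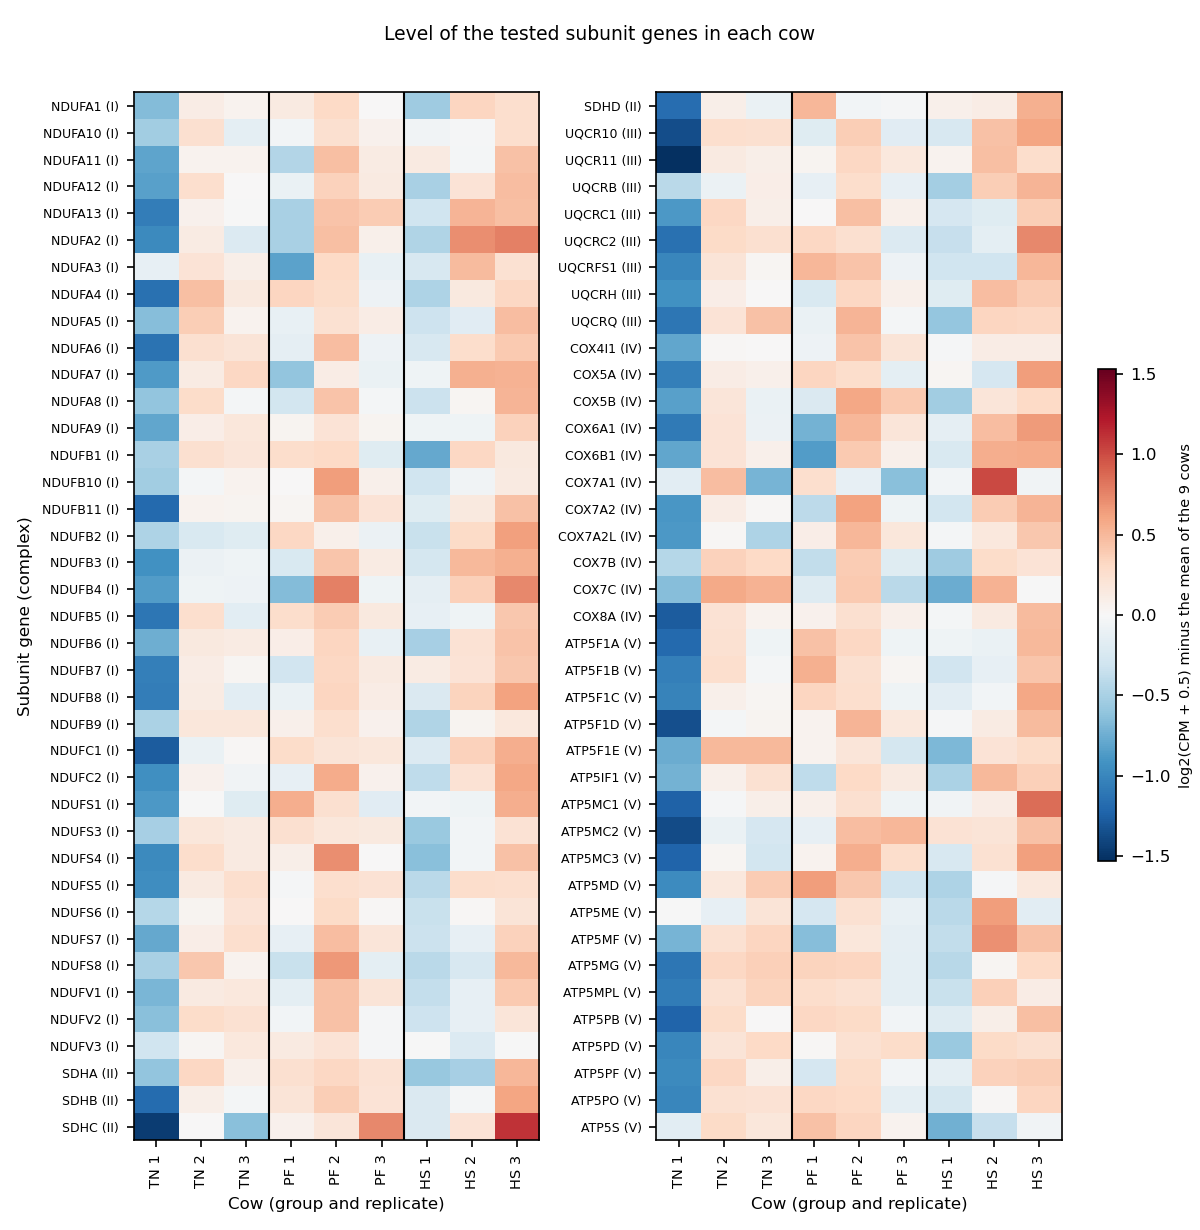
Level of 78 of the 79 tested subunit genes (rows, complex in brackets) in each of the 9 cows (columns), as log2(CPM + 0.5) minus the mean of the gene over the 9 cows; blue is lower and red higher, with black lines between TN, PF and HS. The column of TN replicate 1 is blue in nearly every row, and in the row of ATP5S the 3 HS cows are blue or near white and the 3 PF cows red or near white.

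Most of the variation of these genes was shared by the genes of 1 cow. The median SD of log2(CPM + 0.5) over the 9 cows was 0.47 for the 79 genes, and it was 0.22 after the mean of the 79 genes in each cow was subtracted. The SD became smaller in 74 of the 79. On this relative scale, which sets each gene against the other subunit genes of the same cow, 14 genes were above and 7 below TN in all HS cows, against 3.07% and 5.73% of all genes set against the same mean. The subtracted mean is that of the 79 genes themselves, so their own spread shrinks by construction. The shares of all genes given here and below are therefore not a like background. These values, which include TN replicate 1, are a description without a test, and the genes named on this scale were picked for not overlapping.

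The relative level of ATP5S was -0.44, -0.52 and -0.46 in HS cows, -0.02 to 0.46 in PF and 0.11 to 0.71 in TN. Its 3 HS cows thus lay close together once the shared level was removed. TN replicate 1 was the highest of the TN cows on this scale (0.71), although it was the lowest of them by CPM (10.6). The other genes with lower relative levels in HS than in TN were the core subunits NDUFS3 and NDUFV2, with ATP5F1E, ATP5MD, COX7B and NDUFB9. NDUFS3 was at -0.28, -0.21 and -0.18 in HS and at 0.01 to 0.37 in TN cows. Among those with higher relative levels in HS were the subunit c genes ATP5MC2 (0.03 to 0.50 in HS, -0.50 to -0.26 in TN) and ATP5MC3 (0.04 to 0.22 in HS, -0.35 to -0.13 in TN), the membrane anchors SDHC and SDHD, and NDUFB3, NDUFB4 and NDUFC1 of complex I.

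In HS against PF, 4 genes had higher (4.24% of all genes) and 5 lower relative levels without overlap (2.13% of all). The higher genes were ATP5MF, ATP5PF, NDUFA7 and UQCR10. Among the lower ones were ATP5S, NDUFB9, NDUFB10 and NDUFS3, of which ATP5S, NDUFB9 and NDUFS3 were also below TN. In PF against TN, 7 were higher (2.58% of all) and 7 lower (8.19% of all). ATP5MC2 and ATP5MC3 were among the higher genes, and ATP5F1E, COX7B and NDUFV2 among the lower, as in HS against the same TN cows.

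The subunits of complexes I, III, IV and V that the mitochondrial genome encodes had a different course. Counts on them, divided by the counts on the nuclear encoded genes of the same 4 complexes in the same library, gave a ratio that does not depend on scaling. It was 45.8, 17.8 and 26.3 in TN, 10.04, 8.53 and 10.9 in PF and 7.86, 8.01 and 4.84 in HS cows. The 3 groups did not overlap, with TN highest and HS lowest, and the means were 30.0 ± 14.3, 9.81 ± 1.19 and 6.91 ± 1.79 (SD, n = 3). The log2 ratio of the groups was -2.12 for HS against TN, -1.61 for PF against TN and -0.51 for HS against PF. Without TN replicate 1 the first 2 were -1.68 and -1.17.

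**Figure D5:**
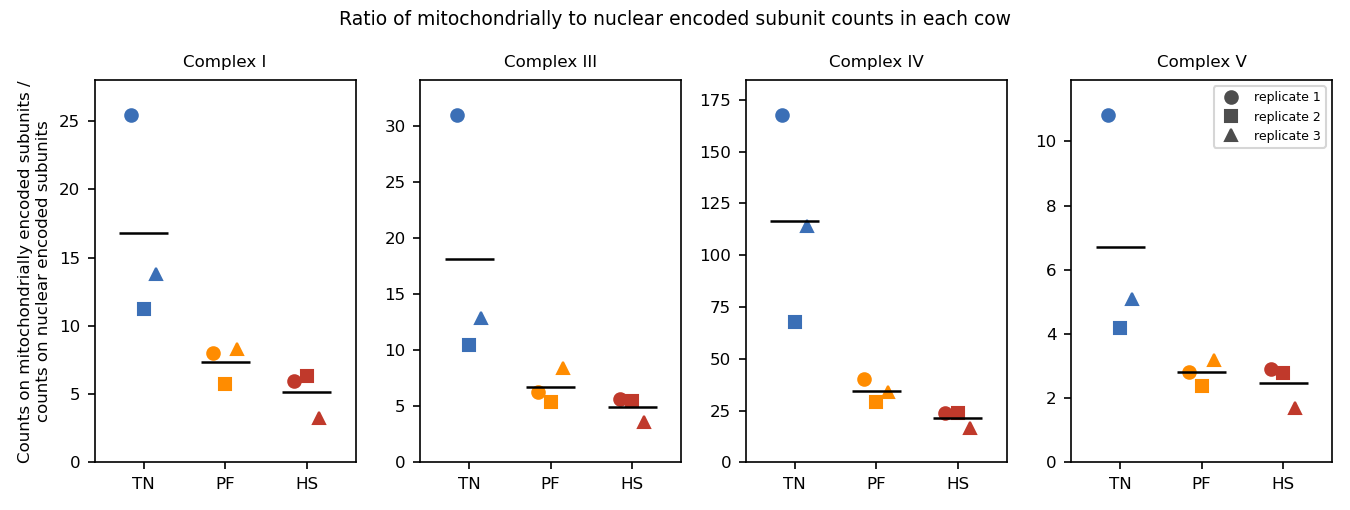
Counts on mitochondrially encoded subunits divided by counts on the nuclear encoded subunits of the same complex in each cow, for complexes I, III, IV and V; points are cows, coloured by group and shaped by replicate. In each complex the 3 TN cows lie above the 6 other cows, and PF and HS are separate only in complex IV.

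The ordering of TN above the other cows was seen in each complex. In complex IV the ratio was 168, 67.7 and 114 in TN, 40.4, 29.2 and 34.0 in PF and 24.0, 23.6 and 16.8 in HS cows, with no overlap between any of the groups. In complex I it was 11.2 to 25.5 in TN, 5.75 to 8.31 in PF and 3.22 to 6.30 in HS cows. The ranges were 10.5 to 31.0, 5.39 to 8.42 and 3.61 to 5.68 in complex III and 4.18 to 10.8, 2.38 to 3.19 and 1.69 to 2.92 in complex V. In complexes I, III and V, PF and HS overlapped.

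The genes of the numerator and of the denominator were also compared one by one. The 13 mitochondrially encoded protein genes had a median log2 fold change of -1.45 in HS against TN, -0.47 in HS against PF and -0.90 in PF against TN, with lower means in 13 of 13 genes in each. The tools differed on these genes. By the criteria above DESeq2 called 13, 3 and 5 of the 13 as lower in the same order, whereas edgeR called 0 in each pair, with 12, 3 and 8 at an unadjusted p under 0.05. Without TN replicate 1 the medians were -1.37 in HS against TN and -0.84 in PF against TN. edgeR again called 0, with 13 and 12 lower at an unadjusted p under 0.05 (3.28% and 2.43% of all genes tested). For the 79 nuclear encoded genes the medians in the same order were 0.25, -0.03 and 0.28. The ratio compares RNA of the 2 genomes after poly-A selection, and a part of the selection or of RNA quality in it was not tested.

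Genes of the same pathway outside the symbols used were examined from a list. Of 50 assembly factors in the table, which build the complexes but are not part of them, 48, 48 and 47 were tested in HS against TN, HS against PF and PF against TN. edgeR called 0 in each. At an unadjusted p under 0.05, 3, 1 and 3 were higher (4.13%, 3.07% and 2.99% of all genes tested) and 0 lower (5.23%, 2.25% and 3.89% of all). The medians were 0.28, 0.05 and 0.13. Those against TN were 0.07 and 0.02 without TN replicate 1. NDUFAF2, an assembly factor of complex I, was at 0.492, 0.741 and 0.417 CPM in TN, 2.01, 2.12 and 1.99 CPM in PF and 0.738, 3.22 and 1.48 CPM in HS cows (named after its values were seen). It had only 11, 12 and 7 counts in the TN cows. PF lay above TN without overlap, with a log2 fold change of 1.88 (SE 0.66, edgeR FDR = 0.697), and HS overlapped both groups. The subunits CYC1 of complex III and NDUFAB1 of complex I, with the electron carrier CYCS, had a median of 0.16, -0.27 and 0.40, with 0 called, and of -0.14 and 0.13 against TN without TN replicate 1.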

How the data were processed

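The authors deposited raw read counts per gene for the 9 libraries, without normalization. As given in the paper's methods and the submitters' processing notes, reads were cleaned with fastp 0.23.2, aligned to ARS-UCD1.2 with STAR 2.7.9a and counted with featureCounts 2.0.3. The annotation release and the strand and multi-mapping settings are not given in the sources used here. All columns were mapped to a cow by their labels.

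The 6 libraries of a pair of groups entered 1 fit in edgeR 4.0.16 (R 4.3.3) with TMM factors, filterByExpr and the quasi-likelihood F test, and p-values were adjusted by Benjamini-Hochberg over the whole table that passed the filter. DEGs changed more than 1.5-fold at an FDR below 0.1. The paper used DESeq2, which was run (1.42.0) as an alternative. CPM were TMM-normalized over 9 libraries, with an offset of 0.5 on the log2 scale. Summed levels, medians, relative levels and ratios are descriptions without a test. The fit was tested on simulated counts.

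The genes, the lists and the tests were chosen with earlier results of these data known. Named genes are, per complex, the 4 with the smallest p in HS against TN and the 2 in the other pairs, the catalytic subunits, the isoform pairs, and the highest and lowest of a stated range. RefSeq (ARS-UCD2.0), a later assembly than that of the alignment, matched 82 of the 85 symbols and showed 23 genes overlapping another. It was used for names and neighbours only. No pair of libraries was alike within counting noise. The labels give only the group and a replicate number, and the paper describes the samples as separate cows. The p-values therefore set the group differences against the spread between these cows. Alternatives were other normalizations, filters and thresholds, all libraries in 1 fit, a replicate block and each cow left out in turn. Leaving out TN replicate 1 and HS replicate 1 together, and the fits without TN replicate 1 and with DESeq2 for the comparison lists, were chosen after the data were seen. The values of 1 tested gene are not reported here.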

Additional observations from a re-analysis of the deposited data

How the results depend on the processing

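With 3 cows a group, the counts of subunit genes called were 0 in the 3 pairs of groups under every alternative run, with 1 exception: DESeq2 called 1 in HS against TN, COX7B2, which did not pass the edgeR filter in the reported fit and was not called by edgeR where it was tested. Leaving out 1 cow at a time, the median log2 fold change ranged from 0.01 to 0.44 in HS against TN, from -0.22 to 0.12 in HS against PF and from 0.03 to 0.44 in PF against TN, lowest without TN replicate 1, HS replicate 3 and TN replicate 1. The log2 ratio of mitochondrially to nuclear encoded counts ranged from -2.38 to -1.68, from -0.63 to -0.31 and from -1.88 to -1.17 in the same order. Without TN replicate 1 the ratio was -1.24 (HS) and -0.80 (PF) in complex III and -0.91 and -0.73 in complex V, each against TN. The number of subunit genes with an unadjusted p under 0.05 and higher in HS than in TN was 2 in the reported fit, 0 without TN replicate 1 and 11 under the replicate block. The shares of all genes tested were 4.13%, 3.19% and 5.37% in the same order. With total counts in place of TMM factors the median of all genes in PF against TN was -0.17 and that of the subunit genes 0.18. The replicate numbers are not stated to pair cows, and the deviations of cows with the same number correlated at 0.25, -0.19 and 0.15 in HS against TN, so the numbers were not taken as pairs. With them as a block, 0 subunit genes were called in the 3 pairs of groups, and the median log2 fold changes were 0.27, -0.06 and 0.33. A background of genes with short proteins was planned and not run, because no table of proteins was used here.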
